A study of Mus musculus with 6 samples.

Results

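The 10 genes described here encode growth factor receptor tyrosine kinases outside the insulin and EGF receptor families: Pdgfra, Pdgfrb, Met, Ret, Axl, Kit and Fgfr1 to Fgfr4. They were chosen by name, and all 10 were found among the 54532 genes of the deposited count table. RNA was sequenced from Glu-tag cells, a mouse line that the labels place in the small intestine and that is known as a proglucagon-producing enteroendocrine line. In 3 libraries the labels give the genotype as an IRS2 knockdown, made with a stable short hairpin (sh-IRS2, called shIRS2 here), and the other 3 carry a control hairpin (sh-control, called shControl) with the genotype WT. The hairpin sequences and whether each line is a clone or a pool were not given in the sources used here. Library totals ran from 14991019 to 19790073 counts, and levels are given as CPM (counts scaled by the library total) or, between genes, as FPKM (also divided by gene length).

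Receptor tyrosine kinases span the plasma membrane, bind a ligand outside the cell and phosphorylate each other inside it, which recruits adaptors that feed the MAP kinase and phosphoinositide 3-kinase pathways. PDGF receptors are typical of mesenchymal cells, MET binds hepatocyte growth factor and drives epithelial motility, and AXL binds the vitamin K-dependent protein GAS6. RET needs a GPI-anchored co-receptor of the GFRA family to bind its ligands, KIT binds stem cell factor, and the FGF receptors bind FGFs together with heparan sulfate. RET is also known as a receptor of neuroendocrine cells and KIT as one of mast cells and interstitial cells of Cajal.

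The label of the cells and the label of the knockdown were checked first, and neither was borne out by its defining transcripts. Irs2 had 31.4, 28.6 and 38.7 CPM in the libraries labelled shIRS2 numbered 1 to 3, against 31.6, 22.7 and 34.3 CPM in the shControl libraries. The groups overlapped (log2 fold change 0.17, SE 0.16, edgeR adjusted p 1.00), and the 95% interval allowed a fall of at most 12.8%. Directions below are therefore given for the libraries by their label, shIRS2, and not for a loss of Irs2. Of 20 enteroendocrine markers, 3 had a mean of at least 1 FPKM and 8 had 0 counts in all 6 libraries. The 8 included Gcg, which encodes proglucagon, Chga, which encodes the granule protein chromogranin A, the prohormone convertase gene Pcsk1 and the transcription factor gene Neurod1. A total of 0 counts allows a level of up to 0.0295 CPM, that of 3 counts in the 6 libraries pooled. The 3 expressed markers were Cpe, a carboxypeptidase gene, at 82.3 ± 3.74 FPKM (mean ± SD over the 6 libraries), and the transcription factor genes Pax6 and Nkx2-2 at 2.02 and 1.10 FPKM. Of 8 epithelial markers 2 had a mean of at least 1 FPKM. The keratin gene Krt8 stood at 202 FPKM, while Epcam held 1 count and Cdh1 held 14 counts in the 6 libraries together. Of 10 fibroblast markers 4 had a mean of at least 1 FPKM and 2 had 0 counts. The collagen gene Col3a1 stood at 74.6 FPKM, while Col1a1 held 20 counts and Dcn 25. The cells are therefore called here by their label only, with the enteroendocrine hormones at 0 or near 0.

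**Figure D1:**
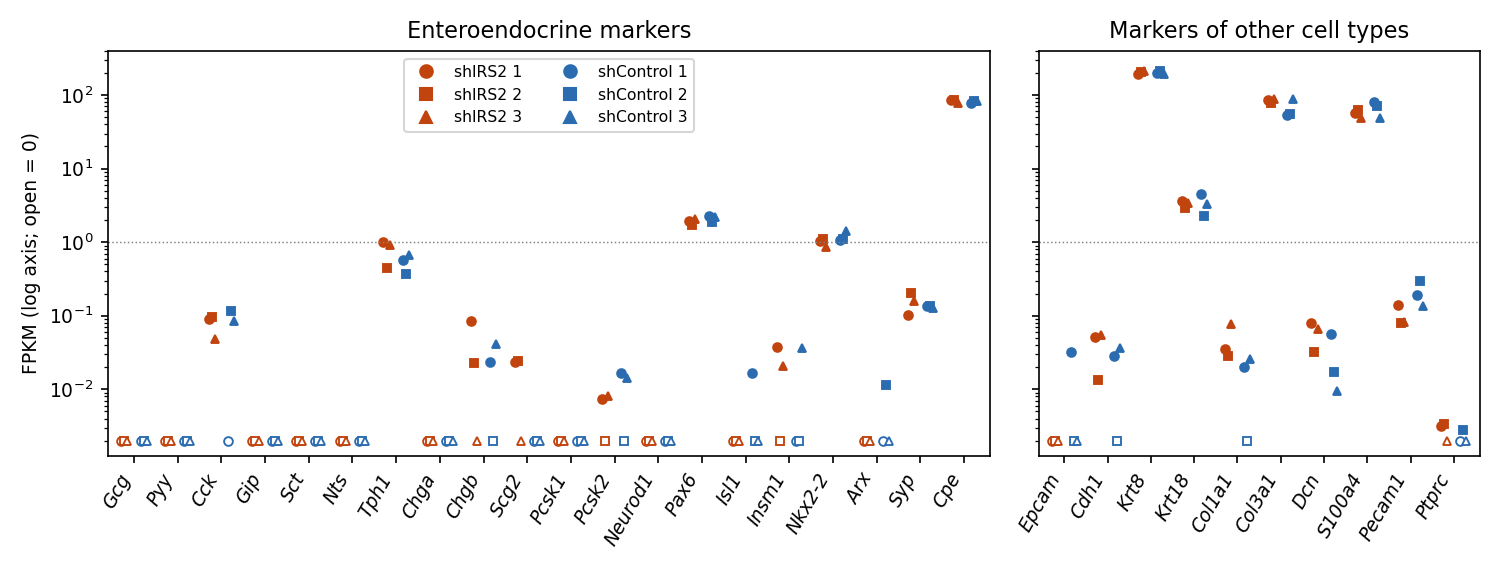
Levels of the 20 enteroendocrine markers (left) and of a selection of markers of other cell types (right) in FPKM on a log axis, 1 point per library. Filled points are values above 0 and open points at the bottom are values of 0. The dotted line is 1 FPKM. Cpe, Pax6 and Nkx2-2 average above it, and 8 enteroendocrine markers have only open points.

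Fgfr1, Axl, Met, Pdgfrb and Pdgfra were expressed, with a mean of at least 1 FPKM, and the other 5 receptors were low or undetected. Fgfr1 was the highest, at 69.0, 62.4 and 71.7 FPKM in the libraries labelled shIRS2 numbered 1 to 3, against 59.1, 50.7 and 70.2 FPKM in the shControl libraries. It made up 48.2% of the summed mean FPKM of the 10 genes. Axl had 35.4, 47.1 and 41.0 FPKM in the libraries labelled shIRS2 and 36.9, 45.1 and 39.5 FPKM in the shControl libraries. Fgfr1 lay above Axl in all 6 libraries, by 1.56 times on the means, and the ranges of their FPKM did not overlap.

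Met followed, at 11.3, 18.4 and 12.2 FPKM in the libraries labelled shIRS2 and 11.5, 17.4 and 11.4 FPKM in the shControl libraries. In both groups the library numbered 2 was the highest. Axl lay above Met in all 6 libraries, by 2.98 times on the means. The PDGF receptors were next. Pdgfrb had 6.34, 8.55 and 7.63 FPKM in the libraries labelled shIRS2 and 7.75, 9.53 and 7.04 FPKM in the shControl libraries. Pdgfra had 7.14, 4.71 and 6.88 FPKM in the libraries labelled shIRS2 and 6.02, 3.52 and 6.04 FPKM in the shControl libraries. These are the only neighbours among the 6 highest receptors whose ranges overlapped, and Pdgfrb lay above Pdgfra in 5 of 6 libraries. The exception was the library labelled shIRS2 numbered 1, where the ratio of Pdgfra to Pdgfrb FPKM was 1.13.

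Fgfr3, the FGF receptor best known from growing cartilage, lay below 1 FPKM in every library. It had 0.629, 0.406 and 0.532 FPKM in the libraries labelled shIRS2, against 0.528, 0.462 and 0.634 FPKM in the shControl libraries, from 388 counts in all. Fgfr1 was thus 120.04 times as high as Fgfr3 on mean FPKM. The annotated pseudogene Fgfr3-ps held 0 counts, so no reads were assigned to it.

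The remaining 4 receptors were close to the limit of detection. Fgfr4, an FGF receptor prominent in liver, held 4, 1 and 0 counts in the libraries labelled shIRS2 and 0, 1 and 1 in the shControl libraries, a pooled 0.0689 CPM (exact Poisson 95% interval 0.0277 to 0.142). Fgfr2, the main FGF receptor of many epithelia, held 2 counts in all, and Ret held 1, in the library labelled shIRS2 numbered 2. Kit held 0 counts in all 6 libraries, which allows up to 0.0295 CPM at 3 pooled counts, or 0.0363 CPM as the upper end of the exact Poisson 95% interval. The order among these 4 cannot be told from so few counts, and such intervals cover counting error only. The listed span of Fgfr2 covers 2960900 bases and overlaps 69 other annotated genes, so its count also depends on how the authors assigned shared reads, which is not given in the sources used here. In bulk RNA, fewer cells with a transcript and less transcript per cell cannot be told apart.

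**Figure D2:**
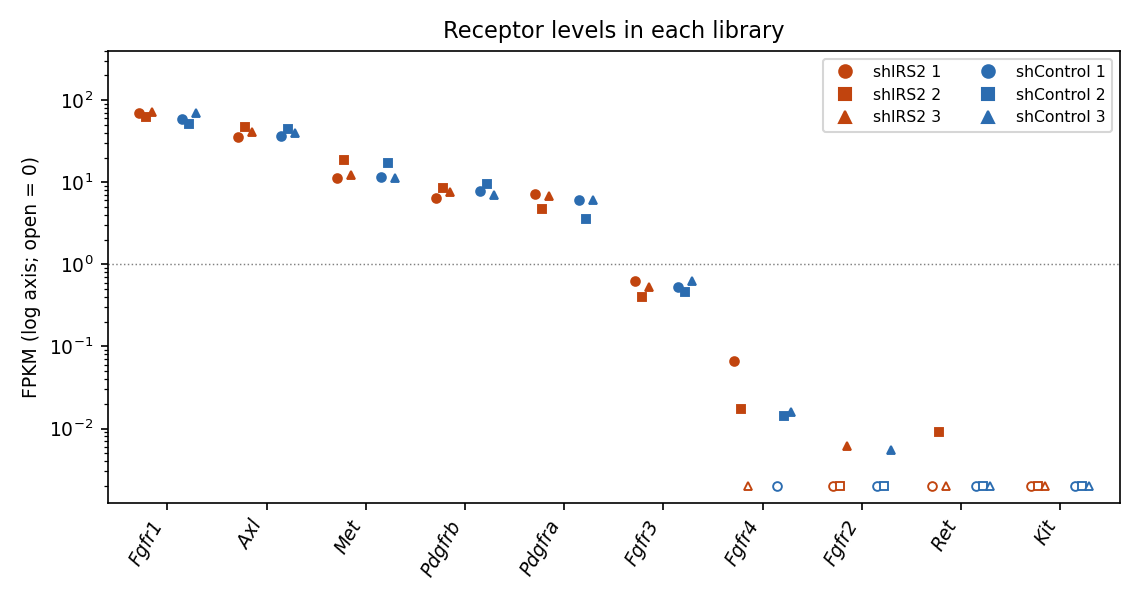
Level of each of the 10 receptors in FPKM on a log axis, ordered by the mean over the 6 libraries. Each point is 1 library, with the libraries labelled shIRS2 left of the shControl libraries, and open points are values of 0. Fgfr1 to Pdgfra lie above the dotted line of 1 FPKM in every library, Fgfr3 lies below it, and Kit has only open points.

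The expressed receptors lie on 5 chromosomes of mm10. Fgfr1 (ENSMUSG00000031565) spans 25513654 to 25575718 on the plus strand of chromosome 8 and overlaps the antisense gene Gm16159, which held 123 counts against 63940 for Fgfr1. Axl (ENSMUSG00000002602) spans 25757273 to 25788705 on the minus strand of chromosome 7, and Met (ENSMUSG00000009376) spans 17463800 to 17573980 on the plus strand of chromosome 6. Pdgfra (ENSMUSG00000029231) spans 75152292 to 75198215 on the plus strand of chromosome 5, where Kit (ENSMUSG00000005672) spans 75574916 to 75656722 on the same strand. Pdgfrb (ENSMUSG00000024620) spans 61045150 to 61085061 on the plus strand of chromosome 18. No annotated gene overlaps Axl, Met or Pdgfrb.

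Ligand transcripts were set beside their receptors, since a cell can supply its own ligand. Among PDGF genes, Pdgfc stood at 3.45 ± 1.02 FPKM (mean ± SD, n = 6 libraries), Pdgfa at 0.952 ± 0.0930 FPKM and Pdgfb at 0.0834 FPKM, and Pdgfd held 0 counts. PDGF-A and PDGF-C chains act chiefly on the alpha receptor, while PDGF-B binds both. Hgf, the ligand gene of Met, was near absent at 0.0566 ± 0.0175 FPKM. Of the ligand genes of AXL and its relatives, Gas6, that of AXL, stood at 0.340 ± 0.169 FPKM. Pros1, which encodes protein S, stood at 5.73 ± 0.533 FPKM. Protein S is known as a ligand of the related receptors TYRO3 and MERTK, whose genes stood at 2.21 and 3.01 FPKM.

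For Kit and Ret the ligand genes were expressed while the receptors were not. Kitl, which encodes stem cell factor, had 19.8, 22.4 and 18.1 FPKM in the libraries labelled shIRS2 and 16.6, 20.6 and 18.5 FPKM in the shControl libraries, beside 0 counts of Kit. Artn, which encodes the RET ligand artemin, had 6.57, 7.501 and 7.16 FPKM in the libraries labelled shIRS2 and 7.67, 7.64 and 9.55 FPKM in the shControl libraries. Gdnf, the founding ligand gene of that family, stood at 1.80 ± 0.161 FPKM. Of the co-receptor genes that RET needs, Gfra2 and Gfra3 held 0 counts, Gfra1 held 26 and Gfra4 averaged 1.37 ± 0.602 FPKM.

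FGF genes were low throughout. None of the 18 secreted FGF genes listed reached a mean of 1 FPKM, and 8 held 0 counts. The highest on mean FPKM was Fgf21, a metabolic hormone gene, at 0.597 ± 0.454 FPKM from 57 counts in all. Fgf2, which encodes basic FGF, stood at 0.336 ± 0.0762 FPKM. In the libraries numbered 2 labelled shIRS2 and shControl, Fgf21 had 0.065 and 0.107 FPKM, below Fgf2 at 0.446 and 0.263 FPKM. Fgf21 signals through FGFR1 together with beta-klotho, and the beta-klotho gene Klb held 28 counts in all. Some of the heparan sulfate proteoglycans that present FGFs were abundant. The glypican gene Gpc1 stood at 109 ± 8.87 FPKM and the syndecan genes Sdc4 at 105 ± 7.38 and Sdc1 at 100.5 ± 10.6 FPKM. The glypican genes Gpc3 and Gpc4 held 0 counts. Fgfrl1, a gene for an FGF-binding receptor without a kinase domain, stood at 4.06 ± 0.762 FPKM.

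**Figure D3:**
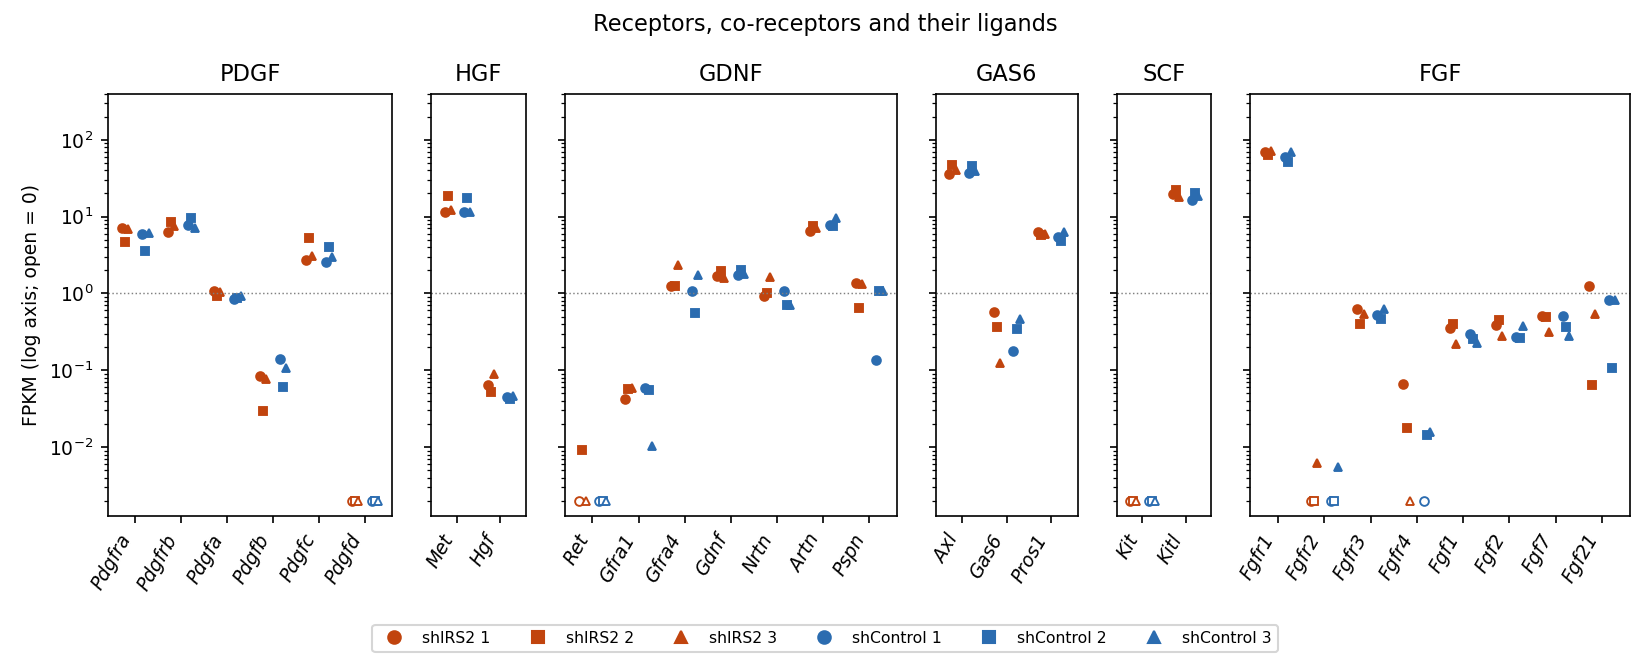
Receptors, co-receptors and ligands by family, in FPKM on a log axis, with 1 point per library and open points for 0. In each panel receptors stand left of their ligands. Kitl lies between 16.6 and 22.4 FPKM beside a Kit of 0, and Met lies above 11 FPKM beside an Hgf below 0.1 FPKM.

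The series asks which transcripts respond to silencing of Irs2, and no receptor passed that comparison. The test was edgeR's quasi-likelihood test on the counts, fitted over the 13472 genes that passed a filter on low counts, with Benjamini-Hochberg adjustment and a threshold of 0.05. Of the 10 receptors 6 passed the filter, and Fgfr4, Fgfr2, Ret and Kit did not. None of the 6 was called, and 0 of 13472 genes were (0%). An unadjusted p under 0.05 was held by 262 genes, below the 673.6 expected by chance, so this test may be conservative here. The adjusted p was 1.00 for each of the 6. With the replicate number as a term 1234 genes had an unadjusted p under 0.05 and 1 was called (0.00742%), the pseudogene Gm44126. DESeq2 called 2, Gm44126 and Gm2446. Both genes lie outside the receptors and were named after their values were seen.

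The size of change that the data allow differed between receptors. Fgfr1 averaged 668 ± 54.8 CPM in the libraries labelled shIRS2 and 598 ± 101 CPM in the shControl libraries (SD, n = 3 each). Its log2 fold change was 0.17 (SE 0.12, 95% interval -0.09 to 0.44). Pdgfra averaged 62.6 ± 14.0 CPM in the libraries labelled shIRS2 and 52.6 ± 15.2 CPM in the shControl libraries, a log2 fold change of 0.27 (SE 0.22, 95% interval -0.23 to 0.77). The groups overlapped for both receptors, as for the other 4. Of all genes tested, 3.26% had every library labelled shIRS2 above every shControl library and 3.09% had every one below. In the numbered pairs the log2 ratio was 0.23, 0.30 and 0.03 for Fgfr1 and 0.25, 0.42 and 0.18 for Pdgfra, positive in 3 of 3 pairs each. The pairs rest on the title numbers, and pairing of the libraries numbered 1 and 3 was not shown. With the replicate block the 95% interval was 0.05 to 0.32 for Fgfr1 and 0.13 to 0.43 for Pdgfra, which leave out 0, and the edgeR adjusted p over all genes was 0.404 and 0.235. Without the shControl library numbered 2 the unblocked log2 fold change was 0.067 for Fgfr1 and 0.050 for Pdgfra, and without the library numbered 2 labelled shIRS2 it was 0.23 and 0.44.

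Axl, Met, Pdgfrb and Fgfr3 had smaller differences. Axl averaged 207 ± 27.2 CPM in the libraries labelled shIRS2 and 205 ± 18.2 CPM in the shControl libraries, with a 95% interval of the log2 fold change from -0.24 to 0.29. Met averaged 107 ± 28.4 CPM in the libraries labelled shIRS2 and 104 ± 25.02 CPM in the shControl libraries, with an interval from -0.42 to 0.54. For Axl that interval allows a fall of at most 15.5% and a rise of at most 22.2%. With the replicate block the intervals were narrower, from -0.11 to 0.14 for Axl and from -0.08 to 0.19 for Met. For Pdgfrb the log2 fold change was -0.11 (SE 0.15) and for Fgfr3 -0.05 (SE 0.23). In a fit without the pair of libraries numbered 2, added once their values were known, 0 receptors and 0 genes were called and the log2 fold change was 0.22 for Pdgfra and 0.12 for Fgfr1.

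The lists around the receptors gave no call in that comparison either. Of the tested genes, 9 of 9 co-receptors, 11 of 14 negative regulators and 6 of 19 adaptors had a positive log2 fold change, with medians of 0.09, 0.07 and -0.04, beside 0.00 over all genes tested. Among ligands 1 of 4 tested genes listed with the GDNF family, Gdf15 among them, and 4 of 4 FGF genes were positive. Artn was lower in each of the libraries labelled shIRS2 than in each shControl library (log2 fold change -0.23, SE 0.14, edgeR adjusted p 1.00), as in 3.09% of all genes. Plat, which encodes tissue plasminogen activator, and the syndecan gene Sdc2 were higher in each, as in 3.26% of all genes, with log2 fold changes of 0.35 (SE 0.14) and 0.19 (SE 0.09) and the same adjusted p. No other tested gene of the lists had groups that did not overlap.

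**Figure D4:**
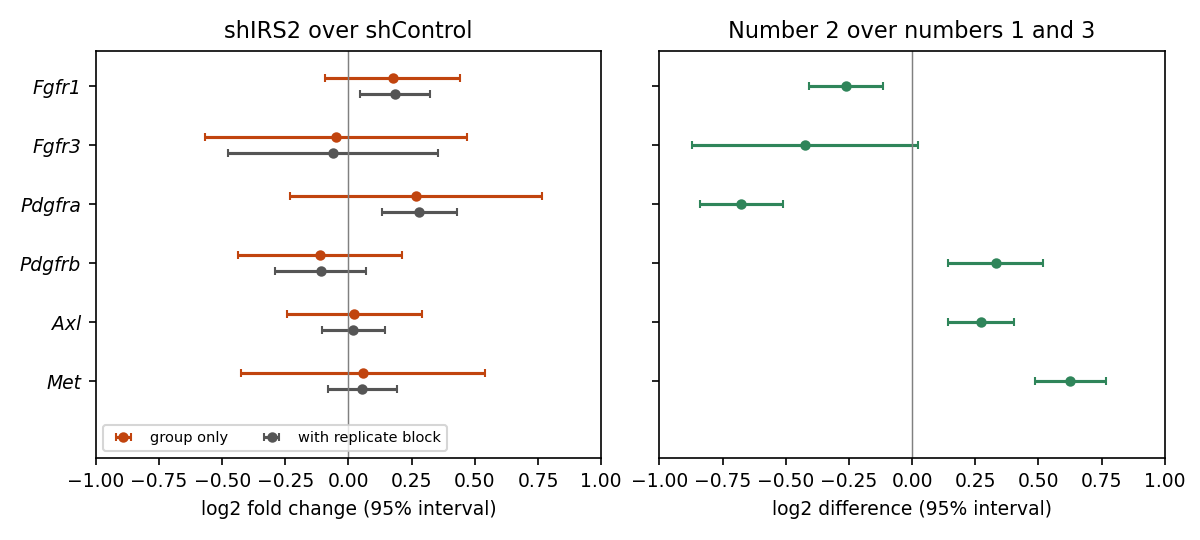
Left, log2 fold change of the 6 tested receptors in the libraries labelled shIRS2 over the shControl libraries, without (red) and with (grey) the replicate number as a block. Right, log2 difference of the libraries numbered 2 over those numbered 1 and 3. Bars are 95% intervals from the edgeR fits. On the right Met is at 0.63 and Pdgfra at -0.67, while on the left every point lies between -0.11 and 0.28.

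The receptors did vary between the replicate numbers of the titles, and did so in opposite directions. In the libraries numbered 2, Met, Pdgfrb and Axl were higher and Pdgfra and Fgfr1 lower than in the libraries numbered 1 and 3 of both groups. That number was singled out because earlier results of these data had shown it to stand apart, so its p-values describe these libraries. No label says what the number stands for. Irs2 itself was lower in the libraries numbered 2 (log2 difference -0.38, SE 0.10, edgeR adjusted p 0.0107). Over all genes 3169 were called (23.5%), 1566 of them higher (11.6%) and 1603 lower (11.9%). Of the 6 tested receptors 5 were called, 3 higher and 2 lower. An F test over all 3 numbers, which singles out none and was added after seeing the data, also called these 5, among 19.6% of all genes, with adjusted p-values from 0.000102 for Met to 0.0394 for Pdgfrb.

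Met, the HGF receptor gene, was 140 and 133 CPM in the libraries numbered 2 of the groups labelled shIRS2 and shControl. In the libraries numbered 1 and 3 it was 87.6 and 93.9 CPM in the group labelled shIRS2 and 90.0 and 88.5 CPM in shControl. Both libraries numbered 2 lay above the other 4, and the log2 difference was 0.63 (SE 0.07, edgeR adjusted p 2.55e-05). It was 0.65 within the libraries labelled shIRS2 and 0.60 within the shControl libraries.

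Axl, the GAS6 receptor gene, was 234 and 225 CPM in the libraries numbered 2 of the groups labelled shIRS2 and shControl. In the libraries numbered 1 and 3 it was 179 and 207 CPM in the group labelled shIRS2 and 189.8 and 200.3 CPM in shControl. These ranges did not overlap either, with a log2 difference of 0.27 (SE 0.06, edgeR adjusted p 0.00546). Pdgfrb was 46.1 and 51.8 CPM in the libraries numbered 2, against 35.0 to 43.4 CPM in the other 4, a log2 difference of 0.33 (SE 0.09, edgeR adjusted p 0.0143). The calls for Axl and Pdgfrb each needed both libraries numbered 2, while the differences stayed about as large without either. With 1 of them left out the log2 difference was 0.24 or 0.31 for Axl and 0.37 or 0.29 for Pdgfrb. Without the library labelled shIRS2 the adjusted p was 0.213 for Axl and 0.0924 for Pdgfrb, and without the shControl library 0.122 and 0.261.

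Pdgfra moved the other way. It was 46.5 and 35.0 CPM in the libraries numbered 2 of the groups labelled shIRS2 and shControl. In the libraries numbered 1 and 3 it was 72.1 and 69.3 CPM in the group labelled shIRS2 and 61.7 and 61.1 CPM in shControl. The log2 difference was -0.67 (SE 0.08, edgeR adjusted p 4.27e-05), and the highest library held 2.06 times the CPM of the lowest, the widest range of the expressed receptors. Pdgfra and Pdgfrb, which form homodimers and heterodimers, thus changed their proportion. The ratio of Pdgfra to Pdgfrb FPKM was 0.551 and 0.369 in the libraries numbered 2 labelled shIRS2 and shControl, and between 0.776 and 1.13 in the other 4.

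Fgfr1 was 607 and 497 CPM in the libraries numbered 2 and between 597 and 712 CPM in the other 4. The ranges overlapped, since the library numbered 2 labelled shIRS2 lay above the shControl library numbered 1. The log2 difference was -0.26 (SE 0.07, edgeR adjusted p 0.0135), and the call was lost without a group term, at 0.0596, and without either library numbered 2, at 0.0803 and 0.497. Fgfr3 had 2.86 and 3.28 CPM in the libraries numbered 2, against 3.83 to 4.57 CPM in the others, which did not pass (log2 difference -0.42, SE 0.21, edgeR adjusted p 0.162). Genes with both libraries numbered 2 below the other 4 made up 20.1% of the genes tested, and genes with both above them 20%.

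**Figure D5:**
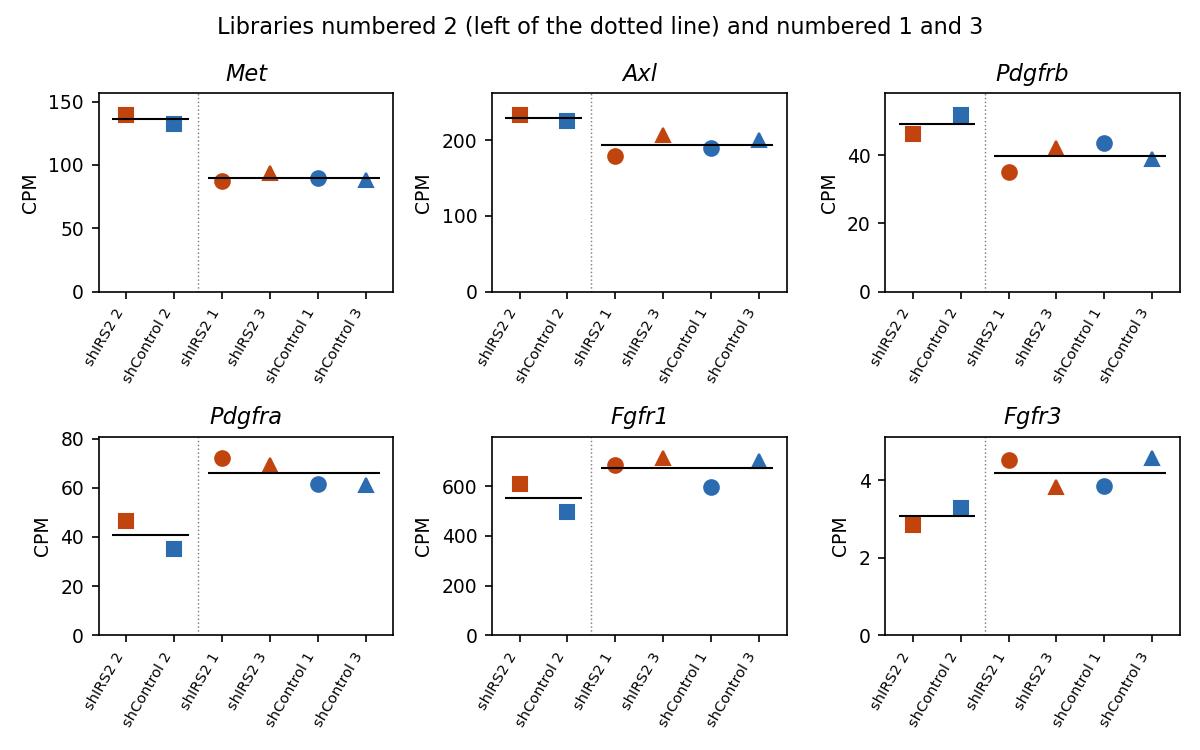
Level of the 6 tested receptors in CPM, with the libraries numbered 2 left of the dotted line and those numbered 1 and 3 right of it. Red marks the libraries labelled shIRS2, blue the shControl libraries, and the horizontal lines are means. Met is 140 and 133 CPM on the left and 87.6 to 93.9 on the right, and Pdgfra is 46.5 and 35.0 on the left and 61.1 to 72.1 on the right.

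The promoters of Met, Axl and Pdgfra are shown because these genes moved between the numbered libraries, the first pair up and Pdgfra down. Each sequence is the 250 bases before the gene's start in RefSeq on GRCm38.p6, written 5′ to 3′ on the gene's strand. Entries were matched by symbol for 7 of the 10 receptors. Pdgfrb and Fgfr1, which were also called between the numbers, had no entry. Met is chr6:17463707-17463956 on the plus strand, Axl chr7:25788734-25788983 on the minus strand and Pdgfra chr5:75152001-75152250 on the plus strand. As listed with the counts, the Met gene starts before its RefSeq start, at 17463800, so the Met window ends inside that gene. Capitals mark GGGCGG, the GC box, and TGANTCA, the AP-1 motif, on either strand.
Met: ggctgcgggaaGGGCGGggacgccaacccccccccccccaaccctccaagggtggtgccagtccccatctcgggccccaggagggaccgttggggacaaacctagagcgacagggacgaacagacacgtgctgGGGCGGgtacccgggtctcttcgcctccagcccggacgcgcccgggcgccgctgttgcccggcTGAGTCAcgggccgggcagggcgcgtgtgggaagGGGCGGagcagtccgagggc
Axl: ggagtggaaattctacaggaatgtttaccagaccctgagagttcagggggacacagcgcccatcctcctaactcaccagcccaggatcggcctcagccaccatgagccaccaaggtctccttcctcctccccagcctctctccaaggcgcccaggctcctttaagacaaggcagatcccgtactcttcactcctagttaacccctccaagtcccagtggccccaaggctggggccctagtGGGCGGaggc
Pdgfra: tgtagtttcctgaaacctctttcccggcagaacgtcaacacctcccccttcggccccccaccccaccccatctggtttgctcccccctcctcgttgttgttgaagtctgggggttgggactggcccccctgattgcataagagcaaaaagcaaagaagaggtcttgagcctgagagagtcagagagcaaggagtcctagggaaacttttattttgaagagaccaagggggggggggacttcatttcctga
The Met window held 3 GC boxes and 1 AP-1 motif. That motif begins at position -54 from the RefSeq start, inside the span listed for Met with the counts. The Axl window held 1 GC box, and the Pdgfra window held neither. Marked motifs did not overlap each other in these windows. GC boxes also stood in the windows of receptors not called, Fgfr3 (3 and 2), Fgfr4 (2) and Kit (1), and not in that of Fgfr2. Over all 32851 promoter windows of that length, 32.7% held a GC box and 6.75% an AP-1 motif. The Met window was also the richest in G and C, at 74%, against 60% for Axl and 54.4% for Pdgfra, with a median of 52.4% over all windows. Among receptors not called, the share was 66.8% and 72.8% for Fgfr3, 70.8% for Kit, 64% for Fgfr4 and 44% for Fgfr2. Such matches describe the letters of these windows only.

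Ligands and partners of the receptors were called about as often as other genes between the numbered libraries, of which 23.5% were. Among tested ligands these were 1 of 2 PDGF genes, 1 of 4 listed with the GDNF family and 1 of 4 FGF genes. They also took in 0 of 2 ligands of AXL and its relatives, and Kitl. The gene called from the GDNF list was Gdf15, and the other tested genes there, Artn, Gdnf and Nrtn, were not called. Of tested co-receptors 2 of 9 were called, and of genes for ligand activation and shedding 1 of 5. Pdgfc, the most abundant PDGF ligand gene, was 26.3 and 20.4 CPM in the libraries numbered 2 labelled shIRS2 and shControl, and 13.5 to 15.6 CPM in the other 4 (log2 difference 0.70, SE 0.11, edgeR adjusted p 0.000589). Kitl was higher by a log2 difference of 0.23 (SE 0.07, edgeR adjusted p 0.0328). Cd44, which encodes a hyaluronan receptor that can act as a co-receptor of MET, was 275 and 251 CPM in the libraries numbered 2, against 173 to 179.6 CPM in the others (log2 difference 0.61, SE 0.06, edgeR adjusted p 1.86e-05). Plau, which encodes urokinase, a protease able to activate HGF, was higher by 0.72 (SE 0.09, edgeR adjusted p 6.26e-05).

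Lower in the libraries numbered 2 were Gdf15, whose product signals through GFRAL and RET, Fgf21 and Gfra4. Gdf15 was 1.52 and 1.72 CPM in the libraries numbered 2, against 8.61 to 12.5 CPM in the other 4, a log2 difference of -2.55 (SE 0.21, edgeR adjusted p 4.97e-06). Fgf21 had a log2 difference of -3.26 (SE 0.68, edgeR adjusted p 0.00357) on 57 counts in all. Gfra4 had one of -0.81 (SE 0.26, edgeR adjusted p 0.0351).

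Inside the cell, 17 of 22 listed adaptors and effectors and 14 of 17 negative regulators averaged at least 1 FPKM, and shares near the 23.5% of all genes were called. Of 19 tested adaptors and effectors 1 was higher and 4 were lower in the libraries numbered 2, with a median of -0.05, and of 14 negative regulators 1 was higher and 2 were lower, with a median of 0.05. The one higher adaptor was the kinase gene Src, at a log2 difference of 0.25 (SE 0.08), and the lower ones included Gab2, a docking protein gene, at -0.62 (SE 0.13). Frs2, a docking protein gene through which FGF receptors signal, stood at 8.27 ± 0.323 FPKM with a log2 difference of 0.04 (SE 0.07). Frs3, of the same list, was lower, at -0.84 (SE 0.24, edgeR adjusted p 0.0213). Errfi1, a feedback inhibitor gene of receptor kinases, was higher by 0.38 (SE 0.07), and Spred3, of the family that restrains RAS, was lower, at -0.81 (SE 0.16). Over all genes tested the median was 0.00.

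Markers of other cell types were read beside this pattern. Of 6 tested fibroblast markers none was called, and their summed level was 612 to 825 CPM in the libraries numbered 2 and 626 to 935 CPM in the others. Col3a1 made up most of it, and Thy1 and Postn were at 0 counts. Of the 5 tested enteroendocrine markers 1 was called, Tph1, which encodes tryptophan hydroxylase and was lower in the libraries numbered 2 (log2 difference -0.93, SE 0.21, edgeR adjusted p 0.00586). The log2 difference was 0.07 for Cpe, 0.03 for Nkx2-2, 0.36 for Syp and -0.26 for Pax6, none of which passed, and the median of the 5 was 0.03. Etv1, listed with Ano1 as a marker of interstitial cells of Cajal, was lower by -0.44 (SE 0.09, edgeR adjusted p 0.00230), with Kit at 0 counts. Mast cell markers summed to at most 0.800 CPM in any library. The part of these markers in the receptor differences was not tested.

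The genes whose profile over the 6 libraries was most like that of Pdgfra, the expressed receptor with the widest range, were Xbp1, Gsdmd and Nagk. Likeness was the root-mean-square difference of centred log2 CPM over the 6 libraries, among the 9040 genes averaging 10 CPM or more, and its median over these genes was 0.37. Xbp1, a transcription factor gene of the unfolded protein response, differed from Pdgfra by 0.048, Gsdmd, which encodes gasdermin D, by 0.059, and Nagk, which encodes a sugar kinase, by 0.064. Xbp1 was 80.4 and 62.9 CPM in the libraries numbered 2 labelled shIRS2 and shControl, and 106 to 123 CPM in the other 4. These 3 genes were picked as the smallest differences, so they lie below the median by selection. Both libraries numbered 2 lay below the other 4 in 20.1% of all genes tested. A link of the 3 genes to Pdgfra was not tested.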

How the data were processed

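RNA was measured in 6 libraries, 3 labelled shIRS2 and 3 shControl, by strand-specific paired-end sequencing, per the labels' protocols. The authors deposited raw read counts per gene for 54532 genes and a table of FPKM values, which equal the count over gene length and a library total 0.985 to 1.02 times the summed counts. Per the submitters' processing notes the build is mm10. Aligner, counter and strand setting were not given in the sources used here. Columns beginning S were read as sh-IRS2 and those beginning NC as sh-control, from their names.

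Differences in counts were tested with edgeR 4.0.16 under R 4.3.3 (filterByExpr by group, TMM, robust quasi-likelihood test), and alternatives used DESeq2 1.42.0 and limma 3.58.1. All tests were two-sided, and Benjamini-Hochberg adjustment ran over all tested genes. The filter kept 13472 genes. The scripts were tested on simulated data. The group comparison had the group as its only term, and the comparison of numbers had the group and the number. Same-numbered libraries had correlations of 0.167, 0.576 and 0.260 for numbers 1, 2 and 3, in log2 CPM centred on each group's mean. This centring passes a shift of number 2 on to numbers 1 and 3, so their correlations alone do not show pairing. Correlations between different numbers were not computed. The replicate block took the numbers to pair the libraries. The series' design text calls the libraries biological triplicates, and separate cultures are not described, so part of the spread that the p-values measure may be technical. The receptors, gene lists and tests were chosen with earlier results of these data known. All 10 receptors, Irs2, and from each list genes with a mean of at least 1 FPKM, the 4 with the smallest p and those called were to be named. Others, such as Hgf, Pdgfb, Gas6, Fgf2, Gfra1, Klb and the absent markers, were named after their values were seen. One gene of a list is not reported here.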

Additional observations from a re-analysis of the deposited data

How the results depend on the processing

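In the comparison of the libraries labelled shIRS2 with the shControl libraries, 0 receptors were called under every alternative run, with edgeR, DESeq2 or limma. The count of all genes called was 6 without a filter on low counts, 2 with DESeq2 and 1 with the replicate block, against 0. It was 0 whenever a single library was left out. Since no receptor passed, the changes of sign here are within error. When single libraries were left out, the log2 fold change ran from -0.22 to 0.021 for Pdgfrb, -0.19 to 0.29 for Met, -0.084 to 0.12 for Axl and -0.21 to 0.11 for Fgfr3, and without a change of sign from 0.050 to 0.44 for Pdgfra, 0.067 to 0.30 for Fgfr1 and 0.019 to 0.29 for Irs2. Without both libraries numbered 2, chosen after seeing the data, it was -0.00026 for Axl. With the replicate block the log2 fold changes of the receptors kept their sign, at 0.28 for Pdgfra and 0.18 for Fgfr1, and it changed no receptor's call.

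Between the libraries numbered 2 and the others, DESeq2 called 1968 genes against 3169, and leaving out single libraries gave 808 to 3687 genes and 2 to 5 receptors. The lowest counts came without the shControl library numbered 2 (808 genes, 2 receptors) and without the library numbered 2 labelled shIRS2 (1081 genes, 2 receptors). Pdgfra and Met passed in each of these. Low counts limit Fgfr4, Fgfr2, Ret and Kit, which no setting can compare between groups.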

Other observations

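Among 23 other receptor tyrosine kinases listed, 7 had a mean of at least 1 FPKM, and 3 held 0 counts. The highest were the collagen receptor gene Ddr2 at 53.3 ± 6.00 FPKM (mean ± SD, n = 6 libraries) and the Wnt receptor gene Ryk at 43.8 ± 2.31 FPKM. On mean FPKM, Ddr2 thus stood between Fgfr1 and Axl, and its range overlapped both. Of the 9 tested, 0 were called between the libraries labelled shIRS2 and the shControl libraries by edgeR. Between the libraries numbered 2 and those numbered 1 and 3, 4 of the 9 were called lower and 0 higher, beside 11.9% and 11.6% of all genes. Those called lower included Ddr1, Tyro3 and Ptk7, and 3 of the 9 had a positive log2 difference without a call. Ddr1, the collagen receptor gene of epithelia, was 16.8 and 15.6 CPM in the libraries numbered 2 labelled shIRS2 and shControl, against 25.8 to 34.3 CPM in the other 4 (log2 difference -0.80, SE 0.10, edgeR adjusted p 9.86e-05). Tyro3 had a log2 difference of -0.50 (SE 0.13) and Mertk one of 0.16 (SE 0.12), beside 0.27 (SE 0.06) for Axl, the third gene of that family.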
